A study of Mus musculus with 8 samples.

Results

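Contacts between whole autosomes are described here over all pairs that 2 different mouse autosomes can form, which are the 231 pairs among the 22 chromosomes of the mouse map (19 autosomes, X, Y and the mitochondrial genome) less the 60 that hold X, Y or the mitochondrial genome. Every pair of autosomes was taken, and no measured value chose a pair. Chromosome maps were made by Hi-C from mouse embryonic stem cells (mESCs) to ask what the RNA of the LINE1 (L1) repeat does for chromosome folding. Cells in 1 group received an antisense morpholino oligo against L1 RNA (L1 AMO) and cells in the other a scramble oligo (SCR AMO), both by nucleofection at 5 nmol per 100 µl. Oligo-positive cells of both groups were sorted at 12 h and harvested at 36 h. Each group had 2 samples, described as independent transfections, and both groups are described with the same kind of cells, nucleofection and sort. Hi-C counts hold no marker of cell type, so the label mESC could not be checked in them. The oligos that separate the groups are shown because they are the only designed difference between the maps, each 25 bases long and written from the 5′ end.

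L1 AMO: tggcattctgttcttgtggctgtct
SCR AMO: cctcttacctcagttacaatttata

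In the interphase nucleus each chromosome keeps to a territory of its own, and contacts between chromosomes form where territories meet or where parts of several chromosomes gather around a shared body such as the nucleolus. Short, gene-dense chromosomes tend to lie toward the nuclear interior and to meet one another there. Mouse chromosomes have the centromere at one end, and several of them carry arrays of ribosomal RNA genes, the nucleolus organizers, beside it.

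The value of a pair is its observed contact count over the count expected from the product of both chromosomes' totals of contacts with other autosomes, scaled so that all expected counts of a sample add up to its contacts between autosomes. A value of 1 therefore means as many contacts as the totals of both chromosomes predict, and differences in depth, copy number or mappability of a whole chromosome enter the expected count too. Contacts between autosomes numbered 23692653 in SCR AMO replicate 1, 4776963 in SCR AMO replicate 2, 8635753 in L1 AMO replicate 1 and 6196193 in L1 AMO replicate 2. Chromosomes 18 and 19 formed the pair with the fewest contacts in each sample, from 13139 in SCR AMO replicate 2 to 68728 in SCR AMO replicate 1. Counting error was thus at most 0.872% of a pair's count. The deposited totals of both SCR AMO samples depart from the numbers of valid pairs the study tabulates, whereas those of the L1 AMO samples are close, so a difference in how the maps were made and the oligo cannot be told apart.

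Most pairs of autosomes met about as often as their totals predict. In SCR AMO replicate 1 the values ran from 0.919 for chromosomes 3 and 19 to 1.07 for chromosomes 1 and 2, and 153 of the pairs lay within 5% of 1. In SCR AMO replicate 2 they ran from 0.920 for chromosomes 1 and 19 to 1.07 for chromosomes 1 and 2, and 158 pairs lay within 5% of 1. Both L1 AMO samples had the same lowest and highest pairs as each other, chromosomes 1 and 19 at 0.884 and 0.892 and chromosomes 1 and 14 at 1.34 and 1.35, with 147 and 148 pairs within 5% of 1. The order of the pairs was alike in replicates of a group, with Pearson's r over all pairs of 0.943 within SCR AMO and 0.986 within L1 AMO and Spearman's rho of 0.928 and 0.969. Between groups rho ran from 0.840 to 0.882 and r from 0.669 to 0.720, and from 0.845 to 0.861 over the 136 pairs that hold neither chromosome 1 nor 14. Pairs that share a chromosome also share its total, so these correlations are a description only.

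The 8 pairs with the highest mean over the 4 samples fell into 3 kinds. Chromosomes 1 and 14 led through the L1 AMO samples alone. Chromosomes 18 and 19 and chromosomes 16 and 19 are pairs of short chromosomes. The others, chromosomes 1 and 2, 1 and 3, 2 and 5, 2 and 4, and 2 and 3, join long chromosomes. Chromosomes 1 and 2 had 1.07 times the expected contacts in all 4 samples, and chromosomes 2 and 5 had 1.07, 1.06, 1.06 and 1.05 in SCR AMO replicates 1 and 2 and L1 AMO replicates 1 and 2. Neither pair passed the test of group difference given below. The 8 lowest pairs held chromosome 19 with chromosomes 3, 1, 5, 2 and 6, then chromosomes 12 and 17, 12 and 15, and 5 and 18. Chromosomes 5 and 19 had values of 0.921 and 0.921 in SCR AMO and 0.936 and 0.936 in L1 AMO. Chromosome 19, the shortest autosome at 61.5 Mb, thus had partners at both ends of the order. Its value was high with chromosomes 16 and 18 but low with chromosome 13, another short one, at 0.922 and 0.938 in SCR AMO and 0.958 and 0.951 in L1 AMO. The upper end of the order depended on how expected counts were made. With expected counts fitted with contacts inside a chromosome left out, a ranking looked at after the first, none of the 5 pairs of long chromosomes was among the 8 highest (mean log2 values 0.036 to 0.059). Chromosomes 18 and 19, 1 and 14, 16 and 19, 17 and 19, 15 and 19, and 16 and 18 then led, from 0.18 to 0.095, and chromosomes 1, 3, 2 and 5 with chromosome 19 were the lowest pairs in both orders.

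That arrangement by length held over all pairs. Among the 6 longest autosomes (chromosomes 1, 2, 3, 4, 5 and 7) the 15 pairs had a median log2 value of 0.045 and 0.044 in SCR AMO and 0.051 and 0.053 in L1 AMO. In the 36 pairs of a long autosome with 1 of the 6 shortest (chromosomes 13, 15, 16, 17, 18 and 19) it was -0.039 and -0.032 in SCR AMO and -0.044 and -0.039 in L1 AMO. In every sample long chromosomes met each other more than the product of their totals predicts, and met short ones less. The 15 pairs of short chromosomes stood at -0.0046 and -0.013 in SCR AMO and -0.00024 and -0.019 in L1 AMO, which is near 0 in both groups. Over all pairs, r between the log2 value and the log2 ratio of the 2 lengths, without sign, was -0.406 and -0.399 in SCR AMO and -0.293 and -0.277 in L1 AMO, and from -0.417 to -0.409 in all 4 samples without chromosomes 1 and 14. Pairs of like length thus tended to have the higher values, although the short pairs stood near 0. The log2 value also went with the mean log2 length of a pair, with r of 0.315 and 0.368 in SCR AMO and 0.223 and 0.251 in L1 AMO. With expected counts fitted with contacts inside a chromosome left out, that r was -0.116 and -0.127 in SCR AMO and -0.171 and -0.177 in L1 AMO.

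Part of this order comes from the way expected counts were made, since a chromosome has no contacts with itself in its total between chromosomes and the product of 2 large totals then predicts too few contacts. When expected counts were instead fitted with contacts inside a chromosome left out, the short pairs rose to 0.036 and 0.032 in SCR AMO and 0.050 and 0.035 in L1 AMO. The long pairs then stood at 0.034 and 0.022 in SCR AMO and 0.0096 and 0.015 in L1 AMO. Pairs of a short with a long chromosome remained below 0, at -0.030 and -0.024 in SCR AMO and -0.025 and -0.021 in L1 AMO. Under either way of counting, short chromosomes met long ones less than predicted, and the correlation with the ratio of lengths was -0.302 and -0.289 in SCR AMO and -0.245 and -0.229 in L1 AMO under the second. The two-sided exact permutation test used for the 3 length sets has a smallest p of 0.333 with 2 samples against 2, so no set could pass 0.05 in it. The long pairs reached that p and the short pairs had an exact permutation p of 1, and the sign of both differences turned with the way of counting. The short set also depended on its size: for the 4 shortest autosomes the median rose to a mean of 0.023 in SCR AMO and 0.080 in L1 AMO, a difference of 0.057 against -0.00094 for the 6 shortest (exact permutation p = 0.333).

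Gene density ordered the pairs less than length did. The 6 autosomes with most protein-coding genes per Mb were chromosomes 2, 7, 9, 11, 17 and 19, and chromosome 7 was the densest at 13.3 genes per Mb. The 6 with fewest were chromosomes 1, 3, 12, 13, 14 and 18, and chromosome 12 was the lowest at 5.59. These densities take gene numbers from the RefSeq annotation of GRCm38.p6 and lengths from the mm9 bins, and over the 19 autosomes density and length were almost unrelated (r = -0.126). The 15 pairs of dense chromosomes had a median log2 value of 0.012 and 0.0036 in SCR AMO and 0.0053 and 0.00071 in L1 AMO. The 15 pairs of gene-poor chromosomes had 0.00087 and -0.00066 in SCR AMO and -0.0040 and 0.0018 in L1 AMO. Both sets were near 0 and overlapped between groups. Over all pairs r with the difference in density, without sign, ran only from -0.126 to -0.102 in the 4 samples.

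The 36 pairs of a gene-dense with a gene-poor chromosome lay lower in L1 AMO. Their median log2 value was -0.018 and -0.020 in SCR AMO and -0.035 and -0.037 in L1 AMO. The groups did not overlap, and the difference of -0.017 had the smallest two-sided exact permutation p the design allows (0.333). Without chromosomes 1 and 14, both of which belong to the gene-poor set, the values were -0.029 and -0.029 in SCR AMO and -0.032 and -0.029 in L1 AMO, and the difference was -0.0016. That fit drops pairs and also recomputes the expected counts of the rest, and which of these moved the difference was not tested. With all autosomes and expected counts fitted without contacts inside a chromosome, the groups lay closer but did not overlap. The medians were then -0.0084 and -0.011 in SCR AMO and -0.019 and -0.017 in L1 AMO.

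Chromosomes 12, 15, 16, 18 and 19 carry nucleolus organizers in many mouse strains, and which of them are active in these cells was not measured. Their 10 pairs had a median log2 value of 0.018 and -0.012 in SCR AMO and -0.0034 and -0.0093 in L1 AMO, so the groups overlapped. The 10 pairs did not behave as 1 set. Chromosomes 18 and 19 had 1.05 and 1.05 times the expected contacts in SCR AMO and 1.13 and 1.11 in L1 AMO, whereas chromosomes 12 and 15 had 0.926 and 0.937 in SCR AMO and 0.951 and 0.945 in L1 AMO. Chromosomes 15 and 19 stood at 1.03 and 1.02 in SCR AMO and at 1.03 and 1.03 in L1 AMO. Chromosomes 16 and 18 had 1.03 and 1.01 in SCR AMO and 1.04 and 1.04 in L1 AMO. The 5 other pairs of the set, apart from chromosomes 16 and 19 given below, had mean log2 values from -0.030 to 0.0044. Of these 5, 4 were below 0. With expected counts fitted as above all 5 lay above 0, from 0.022 to 0.050, and the median of the 10 pairs was 0.057 and 0.028 in SCR AMO and 0.047 and 0.047 in L1 AMO.

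Contacts were called changed in a minority of pairs after L1 AMO, and most changes called were small. By edgeR's quasi-likelihood test with Benjamini-Hochberg adjustment at 0.05, 53 pairs differed between groups, or 31.0% of all tested, with 13 higher in L1 AMO (7.60%) and 40 lower (23.4%). The median size of change over all pairs was 0.016 on the log2 scale. The 40 lower pairs changed by -5.06% to -1.16%, with a median log2 change of -0.031. Apart from chromosomes 1 and 14, the 12 higher pairs rose by 1.49% to 8.37%. In 117 pairs (68.4%) the values of the groups did not overlap. Exchangeable samples, 2 against 2, would separate like this with a probability of 0.333.

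The call count moved with single samples and with the fit. It was 85 without SCR AMO replicate 2 and 31 without L1 AMO replicate 1, and DESeq2 with the same expected counts called 27 pairs, 10 higher and 17 lower. The split of calls moved as well, to 24 higher and 36 lower with expected counts fitted without contacts inside a chromosome, and to 20 higher and 36 lower in balanced maps tested with limma. Without any expected counts 43 pairs were higher and 34 lower after TMM scaling, a comparison in which the coverage of whole chromosomes enters the change.

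The largest change by far was between chromosomes 1 and 14. They made 0.982 and 1.00 times the expected contacts in SCR AMO replicates 1 and 2, and 1.34 and 1.35 times in L1 AMO replicates 1 and 2. The groups were far apart and the replicates of each close together. The log2 change was 0.44 with a standard error of 0.0088, a rise of 36.0% (edgeR adjusted p = 3.0e-07). In counts, the pair held 131214 contacts in L1 AMO replicate 1 and 99258 in L1 AMO replicate 2, more than any other pair in either sample.

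The excess had a sharp centre. The bin pair of these chromosomes with the strongest excess, picked after its values were seen, joined chr1:132000001-132500000 with chr14:97500001-98000000 (mm9, bins of 500 kb). It held 132 contacts in L1 AMO replicate 1 and 95 in replicate 2, against 1 in SCR AMO replicate 1 and 0 in SCR AMO replicate 2. That is 127 and 106 times the count expected from the totals of both bins in L1 AMO, and 0.98 times in SCR AMO replicate 1. Contacts fell off with distance from that point and reached across both chromosomes. Within 5 Mb of it on both chromosomes, observed contacts were 8.12 and 8.07 times the expected count in L1 AMO, and 0.935 and 1.03 times in SCR AMO. From 5 to 20 Mb they were 3.06 and 3.04 times the expected count in L1 AMO against 1.29 and 1.26 in SCR AMO, and beyond 20 Mb 1.31 in both L1 AMO samples against 1.03 and 1.05.

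The excess was also uneven around the point. Contacts of the part of chromosome 1 on the centromere side of it with the part of chromosome 14 beyond it were 2.72 and 2.64 times the expected count in L1 AMO, and 1.05 and 1.10 in SCR AMO. Contacts of the outer part of chromosome 1 with the inner part of chromosome 14 were 1.39 and 1.42 times the expected count in L1 AMO and 0.957 and 0.980 in SCR AMO. Over their full extent the remaining combinations were close to 1 in L1 AMO. They stood at 1.10 and 1.11 for the inner parts of both chromosomes and 1.09 and 1.08 for the outer parts. SCR AMO samples showed 1.05 and 1.07 for the inner parts and 1.25 and 1.20 for the outer parts, so there the outer parts met most. Within 5 Mb of the point, however, the inner parts had 6.19 and 6.10 in L1 AMO and 1.18 and 1.11 in SCR AMO. The outer parts had 0.753 and 0.683 in L1 AMO and 0.841 and 0.991 in SCR AMO within that distance.

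The coverage of both chromosomes differed between groups as well. All contacts per bin on chromosome 1, relative to the median autosome, were 0.983 and 0.990 in SCR AMO and 1.38 and 1.41 in L1 AMO. On chromosome 14 they were 0.869 and 0.874 in SCR AMO and 1.18 and 1.20 in L1 AMO. No other autosome had such a difference: chromosome 8, the highest in SCR AMO, stood at 1.40 in both of them and at 1.33 in both L1 AMO maps, and chromosome 11 at 1.21 in SCR AMO replicates 1 and 2 and 1.14 and 1.11 in L1 AMO. The ratio of coverage between groups differed between the sides of the point of strongest contact. Its median over bins, taken for each L1 AMO sample over each SCR AMO sample, was 1.42 to 1.48 on the inner side on chromosome 1 and 1.26 to 1.30 on the outer side, and where along the chromosome it changed was not tested. On chromosome 14 the ratio was 1.29 to 1.31 on the inner side and 1.42 to 1.50 on the outer side. The parts with the larger gain in coverage were thus the same parts that met each other most. A difference between the groups' cells in these chromosomes and an effect of the oligo cannot be told apart in 2 samples against 2.

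Pairs of chromosomes 1 and 14 with other autosomes were called too. Of the 35 pairs with chromosome 1 or 14, 5 were called higher in L1 AMO and 15 lower, against 7.60% and 23.4% of all pairs, and they differed by chromosome, with 5 higher and 3 lower among the 18 pairs of chromosome 1 and 1 higher and 12 lower among the 18 of chromosome 14. With expected counts fitted without contacts inside a chromosome, the rises of chromosome 1 with chromosomes 3, 6, 7 and 10 did not hold. Chromosomes 1 and 7 then had log2 values of -0.020 and 0.0008 in SCR AMO and -0.0096 and -0.017 in L1 AMO. Those of chromosomes 1 and 10 were -0.0059 and -0.0088 in SCR AMO and -0.020 and -0.015 in L1 AMO. The part of the 1 and 14 pair in the calls of both chromosomes, through their totals, was not tested. Chromosomes 12 and 14 had the largest fall, from 1.00 and 0.991 in SCR AMO to 0.944 and 0.948 in L1 AMO, a log2 change of -0.075 ± 0.0072 (SE; edgeR adjusted p = 0.00183). Chromosomes 9 and 14 went from 1.01 and 1.01 to 0.969 and 0.974, and chromosomes 4 and 14 from 0.977 and 0.975 to 0.942 and 0.944. In fits without expected counts, where the coverage of whole chromosomes enters, these falls turned to rises, as listed in the last paragraph. Chromosome 1 had the highest median log2 value over its 18 pairs in the L1 AMO samples, 0.035 and 0.040, and chromosome 14 the lowest, -0.058 and -0.050. With the fitted expected counts chromosome 1 fell to -0.016 and -0.019, while chromosome 14 was still the lowest at -0.054 and -0.049 and chromosome 11 the highest at 0.017 and 0.015. In SCR AMO the highest median was that of chromosome 8, at 0.032 and 0.021, and the lowest was that of chromosome 19 at -0.035 in replicate 1 and of chromosome 15 at -0.021 in replicate 2, whereas with fitted expected counts chromosome 19 was the highest in both, at 0.013 and 0.022. With both chromosomes left out, a fit chosen after the data were seen, 30 of 136 pairs differed (22.1%), 15 higher (11.0%) and 15 lower (11.0%). Of the 33 pairs called among these 136 in the fit with all autosomes, 20 were called in the same direction.

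The spread of the pair values was larger in L1 AMO, and much of that came from chromosomes 1 and 14 as a pair. The SD of the log2 value over pairs was 0.044 and 0.041 in SCR AMO and 0.062 and 0.060 in L1 AMO, with no overlap (two-sided exact permutation p = 0.333, the smallest possible). Without that pair alone, left out after the data were seen, it was 0.044 and 0.041 in SCR AMO and 0.052 and 0.050 in L1 AMO, and the difference between group means went from 0.019 to 0.0084. Without all pairs of chromosomes 1 and 14, it was 0.046 and 0.042 in SCR AMO and 0.052 and 0.049 in L1 AMO, a difference of 0.0066. Thinned to the lowest depth, SDs were 0.044 and 0.041 in SCR AMO and 0.062 and 0.060 in L1 AMO, so the difference was as large at equal depth.

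Chromosome 19 changed with several partners besides chromosome 1. With 3 of the 5 other short chromosomes its contacts rose by that test. Chromosomes 16 and 19 went from 1.04 and 1.02 times the expected contacts in SCR AMO to 1.12 and 1.12 in L1 AMO, a log2 change of 0.12 ± 0.012 (SE; edgeR adjusted p = 0.00183). Chromosomes 18 and 19, given above, had a log2 change of 0.095 ± 0.014 (edgeR adjusted p = 0.0062). Chromosomes 17 and 19, the pair the study uses to picture contacts between chromosomes, stood at 1.01 and 1.01 in SCR AMO and 1.07 and 1.08 in L1 AMO, a log2 change of 0.082 ± 0.011 (edgeR adjusted p = 0.00511). In each of these 3 pairs both L1 AMO samples were above both SCR AMO samples. Over all pairs the groups did not overlap in 68.4%. Pairs of chromosome 19 with chromosomes 13 and 15 were also higher in both L1 AMO samples but did not pass (log2 change 0.039 and 0.0075, edgeR adjusted p = 0.0548 and 0.695). In fits without expected counts several changes of chromosome 19 turned sign, as listed in the last paragraph.

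With 5 of the 6 long chromosomes its contacts were called lower, though none of these 5 calls, nor that with chromosome 6 below, passed with the replicate number as a block (edgeR adjusted p = 0.0583 to 0.147). Chromosomes 1 and 19 went from 0.929 and 0.920 in SCR AMO to 0.884 and 0.892 in L1 AMO, a log2 change of -0.059 ± 0.0078 (edgeR adjusted p = 0.00511). Chromosomes 3 and 19 went from 0.919 and 0.925 to 0.889 and 0.892, and chromosomes 2 and 19 from 0.941 and 0.950 to 0.918 and 0.920. Chromosome 7, long and the most gene-dense, followed with 1.01 and 0.998 in SCR AMO and 0.969 and 0.976 in L1 AMO. Chromosome 4 had the weakest of the 5 calls, from 0.958 and 0.951 to 0.929 and 0.942, a log2 change of -0.031 ± 0.0094 (edgeR adjusted p = 0.0494). It did not pass with fitted expected counts (log2 change -0.020, adjusted p = 0.167), without SCR AMO replicate 1 (-0.025, adjusted p = 0.0992) or without L1 AMO replicate 1 (-0.020, adjusted p = 0.328). Chromosome 6, next in length to the long set, also fell with chromosome 19, from 0.944 and 0.960 to 0.911 and 0.925, a log2 change of -0.052 ± 0.012 (edgeR adjusted p = 0.0253). Without L1 AMO replicate 1 the pairs of chromosome 19 with chromosomes 3, 6 and 7 no longer passed (edgeR adjusted p = 0.0582, 0.106 and 0.0720), with log2 changes of -0.047, -0.040 and -0.038. Of the 5 pairs of chromosome 19 with another short chromosome 3 were called higher and none lower, and of its 6 pairs with a long chromosome 5 were called lower and none higher, against 7.60% and 23.4% of all pairs. The exception among the long chromosomes was chromosome 5, whose values with chromosome 19 are given above and lay higher in both L1 AMO samples (log2 change 0.022, edgeR adjusted p = 0.0548). With chromosomes 1 and 14 left out, 3 of 5 pairs with short chromosomes were called higher and 4 of 5 with long chromosomes lower. In that fit 11.0% of all 136 pairs were called higher and 11.0% lower. In both fits the pairs of chromosome 19 share its total, so a rise in some of them raises the expected counts of the others. The counts of its calls are thus not independent, and the part of the shared total in them was not tested.

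Single points of contact stood out in other pairs too. Bin pairs with at least 15 contacts and at least 8 times the expected count in some sample were listed after the maps were seen. In 283 of them, spread over 116 pairs of autosomes, the excess was present in all 4 samples. In 86 it was present in both L1 AMO samples and more than 4 times as strong as in either SCR AMO sample, and these lay in just 4 pairs of autosomes: 75 between chromosomes 1 and 14, 4 between 4 and 9, 4 between 16 and 19 and 3 between 8 and 9. The reverse held in 2 bin pairs, 1 between chromosomes 5 and 12 and 1 between 8 and 11. The remaining 280, in 119 pairs of autosomes, met none of these descriptions. Because a high value in any sample was enough for listing, these counts describe the list and test no difference between groups. The samples also differed in depth, with the fewest contacts in SCR AMO replicate 2.

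Between chromosomes 4 and 9 the strongest of the 4 was chr4:118500001-119000000 with chr9:36000001-36500000. It held 79 and 65 contacts in L1 AMO and 5 and 1 in SCR AMO. As a whole the pair of chromosomes went from 1.01 and 1.01 times the expected contacts in SCR AMO to 1.08 and 1.08 in L1 AMO, a log2 change of 0.10 ± 0.0064 (edgeR adjusted p = 2.0e-04). More than 20 Mb from that point the bin-level values were 1.08 and 1.08 in SCR AMO and 1.14 and 1.13 in L1 AMO, so the rise was not limited to its surroundings. At that distance it was uneven. Inner chromosome 4 with outer chromosome 9 went from 1.024 and 1.025 in SCR AMO to 1.141 and 1.131 in L1 AMO, and the outer parts from 1.212 and 1.2 to 1.259 and 1.255. The inner parts went from 1.174 and 1.175 to 1.138 and 1.14, and outer chromosome 4 with inner chromosome 9 from 0.694 and 0.796 to 0.701 and 0.718. Coverage on chromosome 4 in L1 AMO over SCR AMO was 0.994 to 1.03 on the inner side of the point and 0.823 to 0.914 on the outer side, and on chromosome 9 it was 0.988 to 1.03 and 0.932 to 0.955. Whether this bears on the pair was not tested.

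Between chromosomes 8 and 9 the strongest of the 3 was chr8:109000001-109500000 with chr9:35500001-36000000. It held 42 and 40 contacts in L1 AMO and 6 and 0 in SCR AMO. Around this point too the change was uneven. The outer part of chromosome 8 with the inner part of chromosome 9 went from 0.845 and 0.817 times the expected count in SCR AMO to 1.31 and 1.328 in L1 AMO. The inner parts had 1.254 and 1.237 in SCR AMO and 1.252 and 1.225 in L1 AMO, and the outer parts 1.196 and 1.16 and then 1.2 and 1.163. Inner chromosome 8 with outer chromosome 9 had 1.017 and 1.033 in SCR AMO and 1.001 and 1.007 in L1 AMO. The pair as a whole moved little, from 1.02 and 1.02 in SCR AMO to 1.04 and 1.03 in L1 AMO (log2 change 0.021, edgeR adjusted p = 0.0407), and it did not pass without L1 AMO replicate 1 (log2 change 0.017, edgeR adjusted p = 0.180). Between chromosomes 16 and 19 the strongest of the 4 lay near the centromere ends, chr16:3000001-3500000 with chr19:4000001-4500000, with 54 and 28 contacts in L1 AMO and 28 and 3 in SCR AMO. There the excess was present in SCR AMO at 5.86 and 3.23 times the expected count and higher in L1 AMO at 33.4 and 29.4 times. The strongest bin pair of these chromosomes was another one, chr16:3000001-3500000 with chr19:3000001-3500000, with an excess in all 4 samples. It had 73.8 and 80.5 times the expected count in SCR AMO and 110 and 157 times in L1 AMO. These ratios rest on small expected counts. The inner parts of both chromosomes, which hold this bin pair, had together only 13.8 and 2.7 expected contacts in SCR AMO and 4.9 and 3.0 in L1 AMO. Leaving out the first and last 5 Mb of all chromosomes gave a log2 change of 0.097 for chromosomes 16 and 19, so most of that rise lay elsewhere.

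The rest of the largest changes were a few percent in size. Chromosomes 5 and 15 went from 0.973 and 0.967 in SCR AMO to 1.00 and 1.00 in L1 AMO, a log2 change of 0.045 ± 0.0064 (edgeR adjusted p = 0.0062). Chromosomes 9 and 12 went from 0.952 and 0.959 to 0.976 and 0.978. Chromosomes 1 and 6 went from 1.04 and 1.03 to 1.06 and 1.05, but their log2 change was -0.0043 with expected counts fitted without contacts inside a chromosome. Chromosomes 1 and 3, among the highest pairs, went from 1.05 and 1.05 to 1.07 and 1.07 (log2 change 0.028, edgeR adjusted p = 0.0141), and turned to -0.0097 in the same way.

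Each autosome made a smaller share of its contacts with other autosomes after L1 AMO. The median share over 19 autosomes was 36.3% and 36.8% in SCR AMO and 26.9% and 24.6% in L1 AMO, and for every autosome the L1 AMO values lay below those of SCR AMO without overlap. The exact permutation p was 0.333, the smallest possible. Chromosome 19 had the highest share in each sample, 44.5% and 44.1% in SCR AMO and 32.6% and 29.3% in L1 AMO. Chromosome 1 had the lowest, 31.7% and 32.8% in SCR AMO and 23.4% and 21.6% in L1 AMO. Shorter autosomes had higher shares, with r against length of -0.892 and -0.896 in SCR AMO and -0.911 and -0.914 in L1 AMO over 19 autosomes that share a library. Gene density went with the share more loosely, with r from 0.365 to 0.425. Contacts of autosomes with the mitochondrial genome, which lies outside the nucleus, numbered 615 and 1314 per 1000000 contacts in SCR AMO and 769 and 544.5 in L1 AMO, so they did not sort by group, and their part in the share was not tested.

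Position along the chromosomes ordered the contacts of nearly every pair. Each chromosome was divided at its midpoint into an inner part, nearer the centromere, and an outer part. Contacts between like parts exceeded contacts between unlike parts, each relative to the totals of the parts in the pair, in 167 and 170 of the pairs in SCR AMO and in 166 and 167 in L1 AMO. The median log2 ratio was 0.24 and 0.22 in SCR AMO and 0.21 and 0.20 in L1 AMO. In SCR AMO chromosomes 10 and 11 had the strongest preference, 0.47 and 0.42. In L1 AMO it was strongest for chromosomes 4 and 11 in replicate 1 (0.44) and for chromosomes 11 and 15 in replicate 2 (0.43). The median was lower in L1 AMO by 0.027, and the groups did not overlap (exact permutation p = 0.333). In 119 pairs both L1 AMO samples were below both SCR AMO samples, in 5 both were above, and in 47 the groups overlapped.

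Chromosome X gave a comparison outside the autosomes. With X included in the totals, its 19 pairs with autosomes had a median log2 value of -0.069 and -0.055 in SCR AMO and -0.059 and -0.052 in L1 AMO. Chromosome 19 was the lowest partner of X in every sample, at -0.22 and -0.22 in SCR AMO and -0.28 and -0.25 in L1 AMO, and chromosome 1 the highest, at 0.074 and 0.076 in SCR AMO and 0.11 and 0.10 in L1 AMO. Relative to the product of totals alone, X thus met chromosome 19 least and chromosome 1 most in both groups, and no test compared X with autosomes.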

How the data were processed

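Hi-C libraries of 4 samples were sequenced and processed by the authors with HiC-Pro (2.7.1b in the submitters' processing notes) on mm9, and the authors deposited raw contact counts for pairs of 500-kb bins. Counts were summed per pair of autosomes, and both matrices of each L1 AMO sample were added because they agree within sampling noise (chi-square per degree of freedom 0.988 and 0.971 over tiles of 5 Mb). Sums were made in Python 3.11.15 (pandas 2.3.3, scipy 1.17.1, numpy 2.4.6) and fits in R 4.3.3 (limma 3.58.1, DESeq2 1.42.0, edgeR 4.0.16). The edgeR quasi-likelihood fit took log expected counts as offset and group as its only term. Its dispersion was raised to 1.1e-04, a change made after the first fit, because at the default of 9.8e-05 edgeR's deviance (89098) departed from the exact one (106.7) at such counts and 34 F values were negative. Values per sample went into exact two-sided permutation tests. The fit was tested on simulated data drawn with a lower dispersion than the fit itself used. The changes put into them were larger than the median change called in either direction, so calls of smaller changes were not tested there. Members and lists were chosen with earlier results of these data known. Named pairs are the 8 highest and 8 lowest means, the 8 largest rises and falls past the threshold, the 10 nucleolus organizer pairs and chromosomes 17 and 19, with single autosomes named for the highest or lowest value. Other pairs in the text were chosen after their values were seen. Alternatives covered expected counts, matrices, bins, balancing, tools, scaling, depth, list sizes and left-out samples.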

Additional observations from a re-analysis of the deposited data

How the results depend on the processing

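The lower share of contacts between chromosomes, the weaker same-half preference, the larger spread and the lower median of dense-poor pairs in L1 AMO kept their direction under all alternatives run for each, with differences from -11.9 to -9.62 percentage points, -0.048 to -0.021, 0.0066 to 0.021 and -0.019 to -0.0016. The spread and dense-poor differences were smallest without chromosomes 1 and 14. The count of changed pairs was 53, and it was 35 at equal depth, 27 with DESeq2, 159 with library size alone as scaling, and 30 without chromosomes 1 and 14. Without chromosomes 1, 4, 8, 9, 14 and 19, a choice made after the data were seen, it was 8 of 78 pairs. Leaving out 1 sample at a time gave 31 to 85 pairs, where the lone sample of a group is assumed to vary like the others. With edgeR's default dispersion the count was 62 and with a dispersion of 0 it was 74, both tried after the data were seen. With the replicate number as a block it was 11, 7 higher and 4 lower. The labels do not say that a number marks a shared experiment, and the deviations of same-numbered samples had r = 0.098 over all pairs and 0.12 without chromosomes 1 and 14. Under the block the pairs of chromosome 19 with chromosomes 1, 2, 3, 4, 6 and 7, and chromosomes 1 and 3, 8 and 9, and 9 and 12, no longer passed (adjusted p from 0.0583 to 0.147).

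Differences between groups in the length, density and nucleolus organizer medians were small and turned sign in places, and the cause was not tested. The difference for short-chromosome pairs was -0.00094, and 0.0055 with the first L1 AMO matrix, 0.0016 with the second, 0.0076 without the first and last 5 Mb, 0.0092 without the top 0.1% of bin pairs, 0.010 in balanced maps, 0.0089 with fitted expected counts, 0.0090 without chromosomes 1 and 14 and 0.057 for the 4 shortest, with -0.010 to 0.0084 when 1 sample was left out. For long-chromosome pairs it was 0.0073, and -0.0030 in balanced maps, -0.015 with fitted expected counts, -0.0021 without chromosomes 1 and 14 and -0.0013 for the 4 longest. Short-long pairs went from -0.0055 to 0.0040 with fitted expected counts. Gene-dense pairs went from -0.0047 to 0.013 in balanced maps and 0.00073 with fitted expected counts. Gene-poor pairs went from -0.0012 to 0.00023 with the first L1 AMO matrix, 0.0044 in balanced maps and 0.0075 without chromosomes 1 and 14, and ran from -0.0041 to 0.0017 with 1 sample left out. Nucleolus organizer pairs went from -0.0092 to 0.0046 with fitted expected counts and ran from -0.024 to 0.0056 with 1 sample left out.

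Among named pairs, most sign changes came from fits without expected counts, in which coverage of whole chromosomes enters by construction. With TMM the log2 changes were 0.38 for chromosomes 1 and 19, 0.39 for 12 and 14, 0.45 for 4 and 14, 0.41 for 9 and 14, -0.070 for 12 and 19, -0.057 for 15 and 19, -0.0085 for 17 and 19, -0.0099 for 9 and 12, 0.49 for 1 and 2, -0.025 for 12 and 17, -0.011 for 13 and 19, 0.0036 for 2 and 3, -0.040 for 5 and 19 and -0.032 for 8 and 9. With DESeq2 size factors they were 0.38, 0.39, 0.45, 0.41, -0.070, -0.056, -0.0077, -0.0095, 0.49, -0.025, -0.010, 0.0038, -0.039 and -0.032 for the same pairs. With library size alone they were 0.27 for 1 and 19, 0.28 for 12 and 14, 0.33 for 4 and 14, 0.30 for 9 and 14, -0.10 for 12 and 15, -0.18 for 12 and 19, -0.098 for 15 and 16, -0.17 for 15 and 19, -0.089 for 16 and 18, -0.070 for 16 and 19, -0.12 for 17 and 19, -0.091 for 18 and 19, -0.016 for 4 and 9, -0.051 for 5 and 15, -0.12 for 9 and 12, 0.38 for 1 and 2, -0.14 for 12 and 17, -0.12 for 13 and 19, -0.093 for 5 and 18, -0.15 for 5 and 19 and -0.14 for 8 and 9. In fits with expected counts, chromosomes 1 and 6 turned to -0.0043 with fitted expected counts and -0.0055 in balanced maps, and chromosomes 1 and 3 to -0.0097 and -0.013. Chromosomes 2 and 4, not called, had 0.0070 and 0.016 there, 0.00050 without chromosomes 1 and 14, and ran from -0.020 to 0.010 with 1 sample left out. Chromosomes 2 and 5, not called, had 0.00043 in balanced maps, and chromosomes 2 and 3, not called, 0.0012 without chromosomes 1, 4, 8, 9, 14 and 19. Chromosomes 12 and 18, not called, had 0.0021 with fitted expected counts and 0.011 in balanced maps and ran from -0.028 to 0.019 with 1 sample left out, and chromosomes 15 and 19, not called, had -0.00043 without chromosomes 1 and 14.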
